A study of Mus musculus with 2 samples.

Results

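Pericytes are the mural cells that wrap small blood vessels. They were selected here by their measured transcripts, as cells with at least 3 unique molecular identifiers (UMIs, 1 per captured mRNA molecule) of Rgs5, at least 2 UMIs in all of Kcnj8, Abcc9, Higd1b and Ndufa4l2, no UMI of the endothelial genes Pecam1 and Cdh5, and fewer than 5 UMIs of the muscle gene Myog. The rule found 170 cells among 22086 cells with at least 1000 UMIs and at most 10% of them from mitochondrial genes, 94 in one library and 76 in the other. Of these, 25 carried chromaffin and sympathetic neuron genes, and the other 145 held at most 4 UMIs of these each. Of the 145, 144 had at least 1 UMI of Pdgfrb, Notch3, Gucy1a1, Gucy1b1 or Vtn, mural genes that the rule had not used. Of the 25, 24 had at most 3 such UMIs, as had some of the 145, and the share of other kept cells was not counted. At the same cut of 1 UMI, Pdgfrb was seen in 122 of the 145 and 2 of the 25, and Notch3 in 84 and 1. This goes against the name for the 25, so the levels of pericyte genes below refer to the 145 (88 and 57 cells) unless all 170 are named.

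Pericytes share a basement membrane with the endothelium and keep capillaries stable. Endothelial cells secrete PDGF-B, which recruits pericytes through the receptor PDGFRB, while Notch ligands act on NOTCH3 in mural cells. Pericyte tone is set by an ATP-sensitive potassium channel, built from the pore Kcnj8 and its sulfonylurea receptor Abcc9, by nitric oxide acting on soluble guanylate cyclase, and by G protein signals that Rgs5 and Rgs4 limit.

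The study followed the Myf5 lineage in mouse embryos at embryonic day 14 and asked what the loss of the splicing factor gene Srsf2 does to it. One library carried the label SRSF2f/f/Myf5-Cre/tdT, that is, 2 floxed Srsf2 alleles, and the other SRSF2f/w/Myf5-Cre/tdT, 1 floxed and 1 wild-type allele, and both carried Cre driven by Myf5, an early muscle regulator, and the tdTomato reporter (tdT). Embryos without head and viscera were dissociated, tdT+ cells were sorted, and each genotype gave 1 droplet library described as 1 embryonic sample. The reporter marks any cell whose ancestors once had Cre activity, and neither the genotype of a single cell nor its tdT level was read here.

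Srsf2 itself went against the labels. The library labelled f/f held 15268 barcodes and the library labelled f/w 12498. Over the kept cells (12144 and 9942), Srsf2 was at 219 counts per 1000000 UMIs (CPM, 95% interval 216 to 221) in the library labelled f/f and at 153 CPM (151 to 155) in the library labelled f/w, so the label with 2 floxed alleles went with the higher level. Counts of transcript ends check a genotype only where the deleted part is counted, which the sources used here do not settle. The study's own sources differ on this, since its quality control headings pair the cell numbers with the opposite genotypes, its count of retained cells, higher for the knockout, runs with the labels, and the lower muscle share that it gives the knockout runs against them. Myogenic cells, with at least 2 UMIs of Pax7, Myf5, Myod1 and Myog, made up 22.6% of the kept cells in the library labelled f/f and 1.42% in the library labelled f/w. In this order they are close to the muscle shares that the study gives its control and its knockout, by its own clusters and filter. In the 145 pericytes Srsf2 was at 203 CPM (278 UMIs) and 152 CPM (119 UMIs), a log2 ratio of -0.42 with an interval of -0.74 to -0.10. Each ratio below is labelled f/w over labelled f/f, and each would change sign under the opposite assignment.

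There was 1 library per genotype, so no test between genotypes was possible and no p-value is given. Intervals are exact 95% Poisson intervals for CPM, exact Clopper-Pearson intervals for shares and the exact interval of the split of the counts for log2 ratios. All of them cover counting error only, not the spread between embryos. The members held 1438741 UMIs in the library labelled f/f and 1174027 in the other, with medians of 12810.5 and 10992.5 per cell, close to the 10940.5 and 9847.5 of all other kept cells. No doublet caller was run, and 74 barcode sequences occurred in both libraries. One member had such a shared barcode, and in 0 of these pairs were both cells members.

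The 25 members that stood apart were recognised by 5 genes of catecholamine cells that the rule did not use, with a limit set after the values had been seen. These genes are Chga and Chgb, which encode granule proteins, Dbh and Th, enzymes of catecholamine synthesis, and the transcription factor Phox2a. The 25 held between 11 and 327 UMIs of these genes, with a median of 101. The highest of the other 145 held 4, and 128 of them held 0, so no member lay between 4 and 11. The cell with 11, in the library labelled f/w, differed from the other 24: it was very deep (87264 UMIs) and held 22 UMIs of the 5 mural genes, 6 of them Pdgfrb, and 831 of the cartilage list. Chgb was at 5861 CPM in the 6 such cells of the library labelled f/f and at 4461 CPM in the 19 of the library labelled f/w, against 0.73 CPM (1 UMI) and 0 UMIs in the remaining members.

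**Figure D1:**
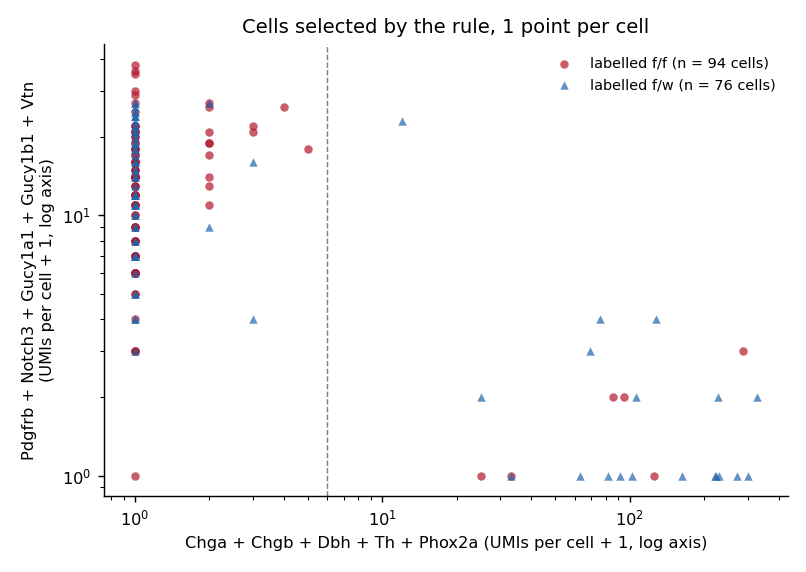
Each point is a cell selected by the rule, with the summed UMIs of the catecholamine genes plus 1 on the horizontal log axis, the summed UMIs of Pdgfrb, Notch3, Gucy1a1, Gucy1b1 and Vtn plus 1 on the vertical log axis, and the limit of 5 UMIs as a dashed line. Of the cells, 145 lie left of the line and 25 right of it, where 19 of 25 come from the library labelled f/w.

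The panel of the rule admitted these 25 cells through a single gene. Of the 25, 23 had Ndufa4l2 as their only panel gene, against 9 of the 145. Ndufa4l2 encodes a mitochondrial protein that hypoxia induces, and Cox4i2, a hypoxia-induced cytochrome oxidase subunit, was also present in these cells (420 and 105 CPM). A Pdgfrb UMI was found in 2 of the 25 and a Notch3 UMI in 1, against 122 and 84 of the 145. Rgs5 was at 854 CPM (647 to 1107) and 500 CPM (432 to 575) in them, as the rule required Rgs5 of every member. Among all kept cells, those with these catecholamine genes were mostly without it: of 453 cells with at least 5 UMIs of the 5 genes, 58 had an Rgs5 UMI and 33 had at least 3.

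The panel genes are part of the rule, so how often they were seen in the 145 pericytes is a description of the selection. Abcc9 was seen in 129 cells (89.0%), Ndufa4l2 in 130 (89.7%), Kcnj8 in 108 (74.5%) and Higd1b, a small mitochondrial protein of mural cells, in 48 (33.1%). Kcnj8 and Abcc9 were seen together in 104 cells, and of the 108 cells with the pore only 4 lacked the receptor. The other known pore and receptor pair was nearly undetected, with 0 UMIs of Kcnj11 in both libraries (intervals to 2.69 and 4.71 CPM) and 0 and 2 UMIs of Abcc8. The values that chose the members stood at 767 and 879 CPM for Rgs5, 142 and 138 CPM for Kcnj8, 224 and 254 CPM for Abcc9, and 64.1 and 71.4 CPM for Higd1b, and they are given as a description.

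Cells just outside the limits on Rgs5 and on the endothelial genes also held mural genes. The 15 members at exactly 3 Rgs5 UMIs had Pdgfrb at 139 CPM, and the 17 cells that met every other criterion with 2 Rgs5 UMIs had it at 111 CPM. The 10 members with 2 panel UMIs had Pdgfrb at 84.3 CPM, the 12 cells with 1 panel UMI at 61.4 CPM, and the 13 cells with none at 4.92 CPM. Of the cells that failed only by Pecam1 and Cdh5, the 10 with 1 or 2 such UMIs had Pdgfrb at 97.8 CPM and Gucy1a1 at 214 CPM, against 138 and 191 CPM in all members, and no UMI of Kdr, the endothelial VEGF receptor. The 7 with 3 or more had Kdr at 395 CPM, Pdgfrb at 97.5 CPM and Gucy1a1 at 77.0 CPM. The limit on Myog removed no cell.

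The promoters below are those of the channel and cyclase gene pairs and of the contractile gene Myl9, chosen because each holds a motif named here. Each is the RefSeq window on GRCm38.p6 from 250 bases before to 50 bases after an annotated start, read along the gene's strand. Capitals mark TGGGAA or its reverse complement TTCCCA, the core to which the Notch effector RBPJ binds, and in Myl9 a CArG box, the serum response factor element of contractile genes. TGGGAA occurs on either strand in 25.6% of all 32851 such windows and a CArG box in 1.63%. The windows are Gucy1a1 chr3:82145024-82145323, minus strand, at an internal start (the window at the outer start, chr3:82145601-82145900, has no match), Gucy1b1 chr3:82074662-82074961, minus strand, Kcnj8 chr6:142571565-142571864, minus strand, Abcc9 chr6:142702225-142702524, minus strand, and Myl9 chr2:156775214-156775513, plus strand.
Gucy1a1: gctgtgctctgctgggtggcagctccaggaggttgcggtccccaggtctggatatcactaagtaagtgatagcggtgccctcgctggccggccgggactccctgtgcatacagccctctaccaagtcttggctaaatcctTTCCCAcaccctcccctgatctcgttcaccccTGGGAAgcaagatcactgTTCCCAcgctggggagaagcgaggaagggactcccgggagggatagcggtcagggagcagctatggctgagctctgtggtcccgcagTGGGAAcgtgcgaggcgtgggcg
Gucy1b1: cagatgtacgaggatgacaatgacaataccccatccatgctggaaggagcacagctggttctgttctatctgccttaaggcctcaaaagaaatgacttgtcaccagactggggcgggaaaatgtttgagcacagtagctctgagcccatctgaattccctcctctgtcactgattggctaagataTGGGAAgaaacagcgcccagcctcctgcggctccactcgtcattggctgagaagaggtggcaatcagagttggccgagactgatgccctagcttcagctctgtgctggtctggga
Kcnj8: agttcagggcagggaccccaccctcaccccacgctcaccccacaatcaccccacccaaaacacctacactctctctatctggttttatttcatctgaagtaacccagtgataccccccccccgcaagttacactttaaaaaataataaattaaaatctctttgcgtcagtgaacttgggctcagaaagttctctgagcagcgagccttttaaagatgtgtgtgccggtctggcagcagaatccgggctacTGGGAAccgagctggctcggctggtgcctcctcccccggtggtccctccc
Abcc9: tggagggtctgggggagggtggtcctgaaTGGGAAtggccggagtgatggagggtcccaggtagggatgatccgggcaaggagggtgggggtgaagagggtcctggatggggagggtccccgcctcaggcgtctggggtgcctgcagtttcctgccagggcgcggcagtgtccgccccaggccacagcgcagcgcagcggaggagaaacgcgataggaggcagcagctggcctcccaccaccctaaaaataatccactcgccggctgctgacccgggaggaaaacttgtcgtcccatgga
Myl9: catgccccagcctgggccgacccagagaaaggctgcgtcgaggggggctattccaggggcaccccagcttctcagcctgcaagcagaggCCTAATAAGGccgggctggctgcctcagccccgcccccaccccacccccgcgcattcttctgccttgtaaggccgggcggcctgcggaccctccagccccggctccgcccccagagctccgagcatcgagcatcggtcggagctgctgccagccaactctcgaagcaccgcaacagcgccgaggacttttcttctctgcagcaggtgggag
Gucy1a1 held 4 matches at the internal start and Gucy1b1, Kcnj8 and Abcc9 held 1 each. The windows of Rgs5 and Notch3, searched the same way, held 0. Of the 16 contractile genes with a window, 2 had a CArG box by this count, Myl9 and Srf. Only unbroken runs of A and T between CC and GG were counted. Near matches with another letter inside, such as ccctatatgg and ccttgtttgg in the Acta2 window, were therefore left out. Tagln, Myh11, Actg2 and Myocd had no window and were not searched. A match is a run of letters and not a shown binding site.

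The gene pairs of the pericyte description are neighbours in the genome. In GENCODE coordinates for GRCm38, the build of the files, Rgs5 lies at chr1:169655501-169695813 on the plus strand and Rgs4, which encodes another regulator of G protein signalling, at chr1:169741477-169747642 on the minus strand, with 45663 bases and no protein-coding gene between them. Kcnj8 (chr6:142564837-142571614) and Abcc9 (chr6:142587862-142702315) are 16247 bases apart, and Gucy1b1 (chr3:82032006-82074689) and Gucy1a1 (chr3:82092427-82145789) 17737 bases, all on the minus strand. Rgs4 was at 70.7 and 77.8 CPM in the pericytes and 10.1 and 18.7 CPM in all other cells.

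Of 26 pericyte markers outside the rule, 17 had at least 20 UMIs in the pericytes of each library, and 11 of these were at least 4-fold higher than in all other kept cells in both libraries. Over all genes measured this held for 61 of 4890 (1.25%), and with all 170 members for 76 of 6115 (1.24%). The median marker was 2.88 log2 units above the other cells in the library where it differed less, against -0.09 for the median gene. The comparison shares its cells with the rule, so it describes the selection and tests nothing. Genes with few UMIs were left out by the floor, among them the fork-head factor Foxs1, seen in 21 and 15 pericytes at 18.9 and 24.2 CPM and at 0.32 and 0.31 CPM elsewhere.

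Pdgfrb, the receptor for PDGF-B, was at 171 CPM (149 to 194) in the pericytes of the library labelled f/f and at 153 CPM (127 to 183) in those of the library labelled f/w. All other cells were at 17.0 and 15.7 CPM, fibroblasts at 31.4 and 29.7 and endothelial cells at 1.17 and 1.13. A Pdgfrb UMI was seen in 78.4% and 93% of pericytes and in 1.67% and 2.0% of endothelial cells, whose median depths were 13067 and 9863 UMIs against 12473 and 15963. With every cell thinned to 2000 UMIs the pericyte shares for Pdgfrb were 24.1% and 29.8%, and the endothelial ones 0.28% and 0.21%. The ligand gene Pdgfb was at 6.56 and 12.8 CPM in pericytes and at 144 and 146 CPM in endothelial cells. Pdgfra, the receptor of fibroblast precursors, was at 17.5 and 17.9 CPM in pericytes and 55.7 and 52.3 CPM in all other cells.

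The Notch pathway was represented by its mural receptor and 2 feedback genes. Of 7 measured genes, Notch3, Heyl and Nrarp were at least 4-fold above all other cells in both libraries, where 1.25% of all 4890 genes were. Notch3 was at 96.9 CPM (81.2 to 115) and 67.6 CPM (50.7 to 88.5), 7.34 and 10.7 times its level in the other cells. Heyl, a transcriptional repressor downstream of Notch3, was at 67.1 and 58.7 CPM, against 5.22 and 1.42 CPM. Nrarp, an inhibitor that Notch induces, was at 27.0 and 40.8 CPM and was not higher than in endothelial cells (ratios of 0.57 and 0.90). Jag1, a ligand, was at 50.3 and 45.9 CPM and passed the 4-fold limit only in the library labelled f/f, with ratios of 4.64 and 3.77. Hes1, a general Notch target, was at 101 and 116 CPM in pericytes and 536 and 492 CPM in endothelial cells.

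A gene of soluble guanylate cyclase, the nitric oxide receptor, headed the ranking. Gucy1a1, its alpha subunit, had the highest ratio over other cells of all 4890 genes measured, by the library where each gene differed less. It was at 227 CPM (202 to 253) and 228 CPM (196 to 264), 54.4 and 63.1 times the 4.17 and 3.62 CPM of all other cells. Gucy1b1, the beta subunit, was at 152 and 181 CPM, 28.9 and 51.5 times the other cells. The second alpha subunit Gucy1a2 was at 23.3 and 25.5 CPM, 11 and 10.9 times the other cells. The 2 main subunits had ratios of 2.25 to 5.99 over smooth-muscle-type cells, defined below. Of the enzymes that break down cyclic nucleotides, Pde3a was at 102 and 90.6 CPM (8.22 and 7.19 times), and the cGMP-specific Pde5a at 29.2 and 39.6 CPM (3.15 and 6.12 times).

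Genes of vessel tone gave a mixed picture. Of 10 measured vasoactive genes, 5 passed the 4-fold limit against all other cells, as did 1.25% of all 4890 genes. Ednra, the endothelin A receptor, was at 86.7 and 112 CPM, 7.10 and 8.51 times the other cells. Atp1b2, a subunit of the sodium pump, was at 30.6 and 31.9 CPM (7.87 and 8.98 times). Gja4, the gap junction protein connexin 37, was at 37.2 and 35.7 CPM, but its ratios over endothelial cells were only 1.18 and 2.09.

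The genes with the highest ratios beside the cyclase included several secreted or matrix-related ones. Vtn, vitronectin, was at 228 CPM (204 to 255) and 361 CPM (320 to 406), 32.0 and 39.7 times the other cells. Mmp9, a matrix metalloproteinase, was at 113 and 190 CPM (39.1 and 30.3 times), and a UMI of it was seen in 25 of 88 and 26 of 57 pericytes. Art3, an ADP-ribosyltransferase family member, was at 40.1 and 58.7 CPM (25.6 and 36.1 times). Cox4i2 was at 281 and 193 CPM (28.9 and 16.6 times). It was the only one of 6 measured hypoxia-linked genes outside the rule past 4-fold, against 1.25% of all genes. Itga1, an integrin that binds collagen, was at 238 and 214 CPM (14.3 and 13.5 times). Further genes among the 20 highest included Cpa1, Lamc3, Actg2, Heyl, Myh11, Rasgrp2, Gucy1a2, Myl9, Mylk, Gja4, Gm13889 and Rasd1.

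**Figure D2:**
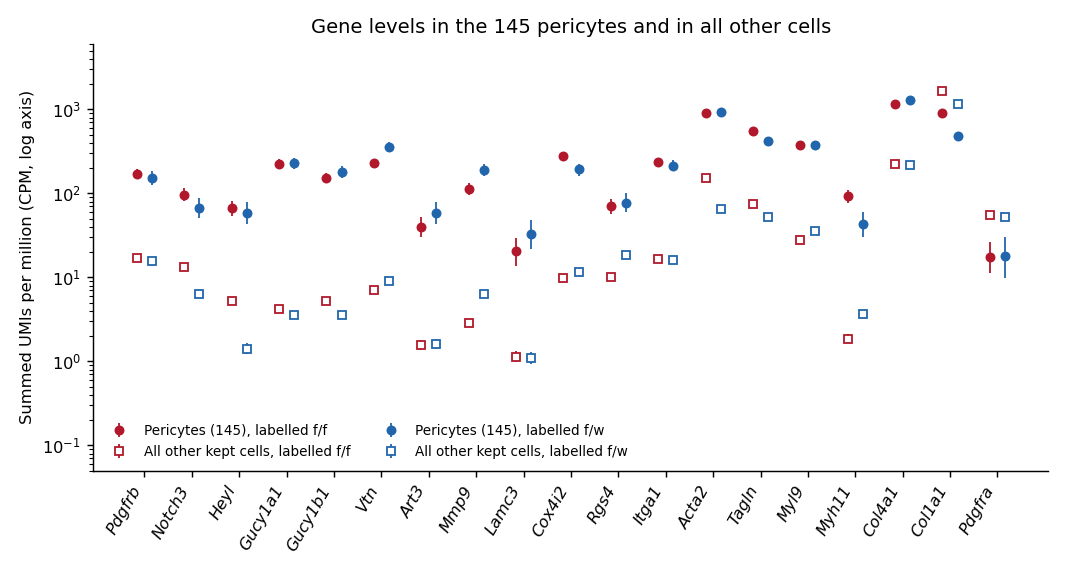
CPM of 19 genes on a log axis, for the 145 pericytes (filled) and all other kept cells (open) of each library, with exact 95% Poisson intervals that cover counting error only. Gucy1a1 lies at 227 and 228 CPM in pericytes and at 4.17 and 3.62 CPM elsewhere, while Col1a1 and Pdgfra lie lower in pericytes than elsewhere.

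Among the matrix genes some of the basement membrane stood out. Of 13 measured basement membrane genes, 3 were at least 4-fold above all other cells: Col4a1 at 1171 and 1286 CPM (5.19 and 5.86 times), Col4a2 at 522 and 531 CPM (4.14 and 4.31 times), and the laminin gamma chain Lamc3 at 20.4 and 33.2 CPM (18 and 30 times). The collagen IV genes were 1.49 and 1.75 times (Col4a1) and 1.19 and 1.32 times (Col4a2) their level in endothelial cells, which make the same sheet. None of 10 measured interstitial collagen genes passed the limit, which is near the 1.25% of all genes, and their median was -0.69 log2 units against the other cells. Col1a1 was at 900 and 486 CPM, against 1640 and 1150 CPM in the other cells and 3447 and 2708 CPM in fibroblasts. In the library labelled f/f, 1 pericyte held 40% of all Col1a1 UMIs.

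Of 21 measured transcription factors of mural and mesenchymal cells, 3 passed the limit: Heyl, Foxf2, a factor of brain and gut mural cells (19.7 and 26.8 CPM, 8.93 and 6.83 times), and Tbx2 (29.9 and 34.4 CPM, 4.42 and 5.72 times). Ebf1 was at 429 and 370 CPM but only 3.35 and 2.13 times the other cells. None of 7 measured angiopoietin and VEGF genes and none of 18 TGF-beta and BMP genes passed it, which is near the 1.25% of all genes. Angpt1, which activates the endothelial receptor Tek, was at 44.5 and 25.5 CPM in pericytes and 3.18 and 2.75 CPM in endothelial cells, where Tek was at 52.5 and 42.3 CPM.

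Compared with the nearest cell types, pericytes differed from endothelial cells in most markers and from smooth-muscle-type cells in few. Endothelial cells (359 and 949) were taken as cells with at least 4 UMIs of Pecam1, Cdh5 and Kdr and none of Rgs5 and Pdgfra. Fibroblasts (3314 and 1975) had Pdgfra, at least 10 UMIs of Dcn, Col1a1 and Col3a1, and no Rgs5, Pecam1 or Cdh5. Smooth-muscle-type cells (19 and 24) had at least 2 UMIs of Myh11 and 5 of Acta2 and no Myod1, Myog, Pecam1 or Cdh5, and were not members of the rule. Of the 145 pericytes, 11 and 4 met the same limits and were counted as pericytes only, so the 2 sets are divided by the rule's own genes. Of the 17 measured markers, 15 were at least 4-fold above endothelial cells, where 4.25% of all genes were, 10 above fibroblasts, where 1.53% were, and 3 above smooth-muscle-type cells, where 0.491% were. With all 170 members these shares of all genes were 4.25%, 1.5% and 0.458%. The 3 markers were Vtn, Art3 and Cox4i2, and of these Vtn had 0 UMIs in the smooth-muscle-type cells of both libraries (intervals to 21.9 and 9.30 CPM). Rgs4 and Mmp9, outside that list, were also at least 4-fold above them.

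Contractile genes were present in pericytes at levels below those of smooth-muscle-type cells. Of 11 measured contractile genes, 7 were at least 4-fold above all other cells, where 1.25% of all genes were. None was 4-fold above smooth-muscle-type cells, which is near the 0.491% of all genes. By the lower library ratio of each gene, their median against smooth-muscle-type cells was -1.65 log2 units, and that of all genes -0.22. Smooth-muscle-type cells were themselves chosen by Acta2 and Myh11 and exclude the pericytes that met those limits. Acta2, smooth muscle actin, was at 908 and 943 CPM in pericytes, 6.02 and 14.4 times the other cells. Tagln, an actin-binding protein, was at 547 and 422 CPM (7.38 and 8.02 times), and Myl9, a myosin light chain, at 378 and 375 CPM (13.5 and 10.6 times). Myh11, the smooth muscle myosin heavy chain, was at 92.6 and 43.4 CPM against 912 and 751 CPM in smooth-muscle-type cells. Cnn1, a marker of mature smooth muscle, had 7 and 6 UMIs in all.

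Acta2 varied widely among the pericytes. Of the 145, 63 had no Acta2 UMI (32 of 88 and 31 of 57), 43 had 1 to 9 (29 and 14) and 39 had 10 or more (27 and 12). This is a range and not a set of types: 16 cells had a single Acta2 UMI, and 2 cells lay at 8 or 9 and 2 at 10 or 11. Depth moved with it, with a median of 8659 UMIs per cell without Acta2, 12664 in the middle and 17201 at the top. The genes were therefore also compared in the 85 pericytes with at least 10000 UMIs (19, 31 and 35 cells). Cells with at least 50 UMIs of the cartilage list were kept here, and were a larger share of the deeper cells without Acta2. The highest cartilage counts in a deeper cell were 997 without Acta2, 537 with 1 to 9 UMIs and 369 with 10 or more. The cell with 997 held 57738 UMIs in all. The part of such cells in the levels by Acta2 was not tested.

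Among these deeper pericytes, Tagln was at 47.8, 100 and 1077 CPM from no Acta2 to 10 or more UMIs, and Myh11 at 0 (interval to 9.80), 6.46 and 180 CPM. Cox4i2 followed the same order, at 53.1 CPM (32.4 to 82.0), 244 CPM (207 to 286) and 463 CPM (415 to 515), in both libraries. Vtn ran the other way, at 212 CPM (168 to 264), 87.2 CPM (65.5 to 114) and 77.0 CPM (58.3 to 99.7). Vtn with Acta2 present was 81.3 and 96.4 CPM in the library labelled f/f and 104 and 34.4 CPM in the other, and the summed level was highest without Acta2 in both. The median over cells was 0.829, 0.803 and 0 Vtn UMIs per 10000 in the library labelled f/f, so without Acta2 and with 1 to 9 UMIs it was nearly equal, and 1.99, 0 and 0 in the other.

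Rgs5, a gene of the rule, was higher without Acta2 over all pericytes, and the libraries had no shared order among the deeper ones. Over all 145 pericytes Rgs5 was at 1233 CPM in cells without Acta2 and 532 CPM in those with 10 or more UMIs in the library labelled f/f (1212 and 675 CPM in the other). Among the deeper cells of both libraries together Rgs5 was at 547, 515 and 554 CPM. In the library labelled f/f it was at 517, 558 and 498 CPM, with overlapping intervals. In the other it was at 578, 396 (306 to 505) and 675 CPM (573 to 789). The rule asks for 3 Rgs5 UMIs, a higher CPM in a shallower cell, so these values are a description. In the deeper cells of both libraries together Pdgfrb was at 125, 131 and 149 CPM with overlapping intervals, and Abcc9 at 167, 226 and 140 CPM. Gucy1a1 among the deeper cells was at 141, 248 and 230 CPM in the library labelled f/f and at 178, 85.3 and 305 CPM in the other, so the libraries did not share an order. It was lower without Acta2 than with 10 or more UMIs in both, by overlapping intervals.

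**Figure D3:**
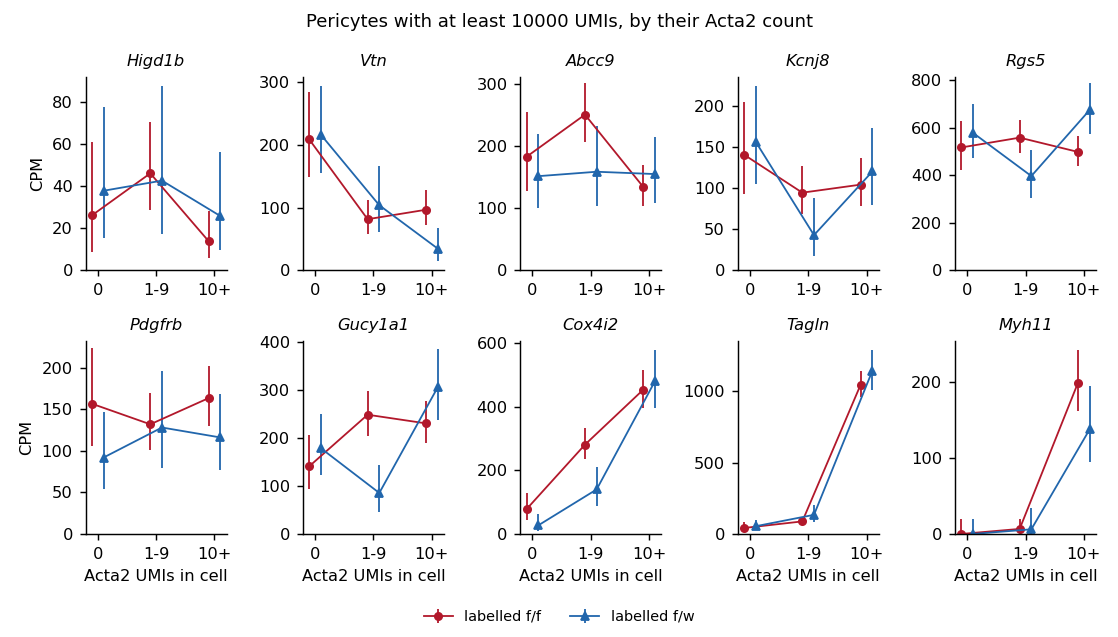
CPM of 10 genes in the 85 pericytes with at least 10000 UMIs, by the number of Acta2 UMIs in the cell, with 1 line per library and exact 95% Poisson intervals that cover counting error only. The counts of cells from left to right are 10, 24 and 23 in the library labelled f/f and 9, 7 and 12 in the library labelled f/w, and Cox4i2 and Tagln are lowest without Acta2 while Vtn is highest there.

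As a share of kept cells, the 170 members made up 0.774% (0.626 to 0.946) in the library labelled f/f and 0.764% (0.603 to 0.956) in the library labelled f/w, a log2 ratio of -0.02 (-0.45 to 0.42). The 145 pericytes made up 0.725% and 0.573%, a log2 ratio of -0.34 (-0.82 to 0.14), and the 25 catecholamine-gene members 0.0494% (0.0181 to 0.108) and 0.191% (0.115 to 0.298). Both intervals for all members and for the 145 included a ratio of 0 on the log2 scale. With the myogenic cells left out of numerator and denominator, the share of pericytes was 0.873% (82 cells) and 0.582% (57 cells), a log2 ratio of -0.59 (-1.07 to -0.10), which did not include 0.

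Relative to the endothelium the libraries differed more. There were 24.5 pericytes per 100 endothelial cells (19.2 to 31.0) in the library labelled f/f and 6.01 (4.51 to 7.85) in the library labelled f/w, a log2 ratio of -2.03 (-2.54 to -1.52). Endothelial cells were 2.96% and 9.55% of kept cells, and 203 of 359 and 647 of 949 had Prox1 or at least 2 UMIs of Lyve1, genes of lymphatic endothelium, which pericytes largely do not cover. Per 100 of the other endothelial cells there were 56.4 and 18.9 pericytes, a log2 ratio of -1.58 (-2.14 to -1.02). Per 100 fibroblasts there were 2.66 and 2.89. All are shares of sorted tdT+ cells, and the part of the gate in them was not tested.

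None of 17 compared markers outside the rule differed 2-fold between the libraries within the pericytes, and their summed level was 2407 and 2397 CPM. Over all genes with at least 50 UMIs, 72 of 5265 (1.37%) were at least 2-fold higher in the library labelled f/w and 101 (1.92%) in the library labelled f/f. With all 170 members the shares were 4.31% and 2.32% of 6077 genes. A count of 0 in 17 is near these shares and shows nothing particular to the markers. The median gene had a log2 ratio of -0.02.

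Some markers differed by less than 2-fold with intervals that did not include 0. Vtn was higher in the library labelled f/w (log2 ratio 0.66, 0.43 to 0.90), as was Mmp9 (0.75, 0.42 to 1.08). Cox4i2 was lower there (-0.55, -0.83 to -0.27), and so were Tagln (-0.37, -0.57 to -0.19) and Notch3 (-0.52, -1.01 to -0.05). The top 5 cells held 35.0% of the Cox4i2 UMIs in the library labelled f/f and 70.2% in the library labelled f/w. For Tagln they held 48.6% and 67.7%. The intervals do not cover such spread between cells. The share of pericytes without Acta2 also differed, at 36.4% in the library labelled f/f and 54.4% in the library labelled f/w, and its part in these ratios was not tested. Gucy1a1 (0.01, -0.26 to 0.28), Pdgfrb (-0.16, -0.49 to 0.17) and Acta2 (0.05, -0.08 to 0.19) had intervals that included 0. For Acta2 this holds for the summed level and not for the typical cell. Its median was 2 UMIs per pericyte in the library labelled f/f and 0 in the library labelled f/w. The top 5 cells held 40.3% and 74.4% of its UMIs. Kcnj8 (-0.04, -0.40 to 0.30) is a gene of the rule, and its ratio is given as a description only. Without the members that had 50 or more UMIs of cartilage genes, the interval of Notch3 included 0 (-0.43, -0.95 to 0.07) and that of Acta2 did not (0.20, 0.07 to 0.34).

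A small number of vascular and signalling genes passed 2-fold. S1pr3, a receptor for sphingosine 1-phosphate, was at 161 CPM (141 to 184) in the library labelled f/f and 70.2 CPM (52.9 to 91.3) in the library labelled f/w, a log2 ratio of -1.20 (-1.65 to -0.77). Among the deeper pericytes without Acta2 it was at 73.1 and 75.7 CPM, among those with 1 to 9 Acta2 UMIs at 132 and 24.4 CPM (60 and 4 UMIs), and among those with 10 or more at 218 and 94.6 CPM. The part of the larger share of pericytes without Acta2 in the library labelled f/w was not tested. In fibroblasts S1pr3 was at 47.8 and 43.6 CPM. Tgfbr1, the TGF-beta type I receptor, was at 45.9 and 16.6 CPM (63 and 13 UMIs, log2 ratio -1.47), and Col15a1, a collagen of basement membranes, at 47.4 and 14 CPM (-1.76, -2.83 to -0.82). Ccl11, the chemokine eotaxin, was at 67.1 and 17.9 CPM (-1.91), and Adamts4, an aggrecan-cleaving protease, at 83.8 and 23.0 CPM (-1.87, -2.67 to -1.14). Foxd1, a stromal transcription factor, was higher in the library labelled f/w, at 39.4 and 102 CPM (1.37, 0.86 to 1.90).

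Of 12 compared contractile genes, Myh11 passed 2-fold, with a log2 ratio of -1.09 (-1.68 to -0.54). Of all 5265 genes, 1.92% were at least 2-fold higher in the library labelled f/f. Single cells held 24% and 47% of its UMIs, and with the top cell of each library left out the ratio was -1.58. Without members that had 50 or more UMIs of cartilage genes the Myh11 ratio was -0.84 (-1.44 to -0.27), under 2-fold. Elastin, Eln, was at 112 and 35.7 CPM (-1.65), with 45% and 32% of its UMIs in single cells.

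**Figure D4:**
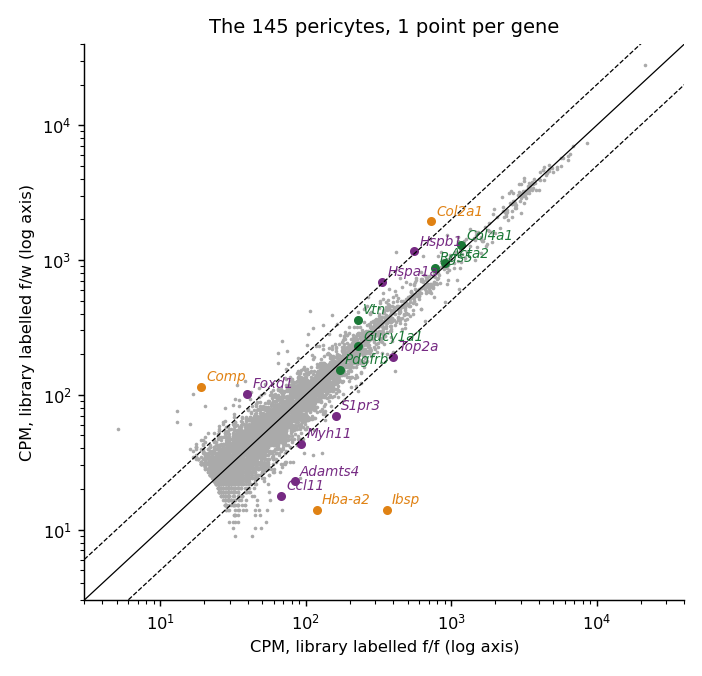
Each grey point is a gene with at least 50 UMIs over the 145 pericytes and at least 1 in each library, at its CPM in the library labelled f/f (horizontal) and labelled f/w (vertical) on log axes, with equality as a solid line and 2-fold differences as dashed lines. Green genes are pericyte, matrix and actin genes, purple genes are other genes named in the text, and orange genes are those whose UMIs came largely from a few cells. Pdgfrb and Gucy1a1 lie near equality, and S1pr3, Ccl11 and Adamts4 lie below the lower dashed line. Rgs5, also near equality, is a gene of the rule and is shown as a description.

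Several of the largest ratios rested on few cells with transcripts of other cell types. The genes with the highest ratios for the library labelled f/w were Comp, Pcolce2, Hapln1, Col11a2, Sdc4, Lgals3, Cnmd and Crybg3, of which Comp, Hapln1, Col11a2 and Cnmd are cartilage genes. In that library 1 pericyte held 64% of the Comp UMIs and 1 held 58% of the Hapln1 UMIs. Of the pericytes, 6 and 5 had at least 50 UMIs of the cartilage list, whose most abundant gene is Col2a1, with up to 425 and 997 in 1 cell and medians of 3 and 2. The 4 and 5 with at least 100 were deep cells, with median totals of 31321 and 24764 UMIs. With these 11 cells left out, the log2 ratio of Comp went from 2.60 to -0.21 and that of Hapln1 from 1.97 to -0.48, while Sdc4 (1.11) and Lgals3 (1.06) stayed above 2-fold and Foxd1 was at 1.44. The intervals of Comp (-2.36 to 1.63) and Hapln1 (-1.97 to 0.84) then included 0. Those of Sdc4 (0.14 to 2.08, from 19 and 21 UMIs) and Lgals3 (0.28 to 1.84) reached well under 2-fold.

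On the side of the library labelled f/f, the highest ratios from 100 UMIs were those of Ibsp, Hba-a2, Hba-a1, Rrm2, Ccl11, Adamts4, Cenpe and Eln. One pericyte held 82% of the 493 UMIs of Ibsp, a bone matrix gene, and 1 cell held 88% of the UMIs of the globin gene Hba-a2. Markers of other types were otherwise low in the 145: the immune list reached at most 3 UMIs in a cell, the neural list at most 18, and the skeletal muscle list at most 25. The fibroblast list had a median of 13 and 8 UMIs per pericyte and reached 100 in 7 and 3 cells. The part of depth and of doublets in these transcripts was not tested.

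Cell cycle genes were lower in the library labelled f/w. All 20 compared genes had a log2 ratio below 0 in the pericytes, with a median of -0.68, and 4 passed 2-fold: Rrm2 (-1.91, -2.69 to -1.21), Mki67 (-1.10, -1.47 to -0.74), Top2a (-1.06, -1.33 to -0.79) and Tpx2 (-1.05, -1.53 to -0.60). Over all 5265 genes, 1.92% passed 2-fold in this direction. Without the cartilage-transcript members Top2a was at -0.89 and Tpx2 at -0.94, under 2-fold. Rrm2 encodes a subunit of ribonucleotide reductase, Mki67 the Ki-67 antigen, Top2a topoisomerase II alpha and Tpx2 a spindle assembly factor. The direction was the same in other cells: 20 of 20 genes were below 0 in fibroblasts (median -0.52), 19 of 20 in endothelial cells (median -0.24) and 20 of 20 in all other cells (median -0.68).

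With each cell thinned to 2000 UMIs, 31 of 87 pericytes (35.6%, 25.6 to 46.6) in the library labelled f/f and 11 of 57 (19.3%, 10.0 to 31.9) in the library labelled f/w had at least 2 UMIs of Mki67, Top2a, Cdk1, Ccnb1, Birc5 and Cenpf, and 1 shallower cell was left out. Their log2 ratio was -0.88 (-1.75 to -0.02). From 1 UMI of these genes the shares were 51.7% and 42.1%, and the log2 ratio of -0.30 had an interval that included 0 (-0.82 to 0.23). Over all members the shares were 34.4% and 15.8%, a log2 ratio of -1.12 (-1.98 to -0.27), and unthinned 56.4% and 36.8%. Fibroblasts stood at 25.2% and 18% and endothelial cells at 29.8% and 25.7% by the same measure. The pericyte and fibroblast ratios (-0.49, -0.65 to -0.33) overlapped in their intervals.

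Stress genes mostly went the other way. Of 13 compared genes, 12 had a log2 ratio above 0 in the pericytes, with a median of 0.38, as did 13 of 13 in fibroblasts (median 0.54) and 7 of 13 in endothelial cells (median 0.01). In the pericytes 2 passed 2-fold, both higher in the library labelled f/w: Hspa1a, an inducible heat shock protein, at 333 and 688 CPM (1.05, 0.86 to 1.23), and Hspb1, a small heat shock protein, at 558 and 1156 CPM (1.05, 0.91 to 1.19). Over all 5265 genes, 1.37% were at least 2-fold higher in the library labelled f/w within the pericytes. In endothelial cells Hspa1a had a log2 ratio of 1.40 and Hspb1 of 0.77, and in fibroblasts 0.55 and 0.81. Below 2-fold, the pericyte ratios of Hspa1b (0.83), the chaperone gene Dnajb1 (0.65), Ier3 (0.53), Atf3 (0.43), Junb (0.38) and Fos (0.29) had intervals above 0, and Egr1 (-0.07, -0.18 to 0.04) was the one gene below 0.

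**Figure D5:**
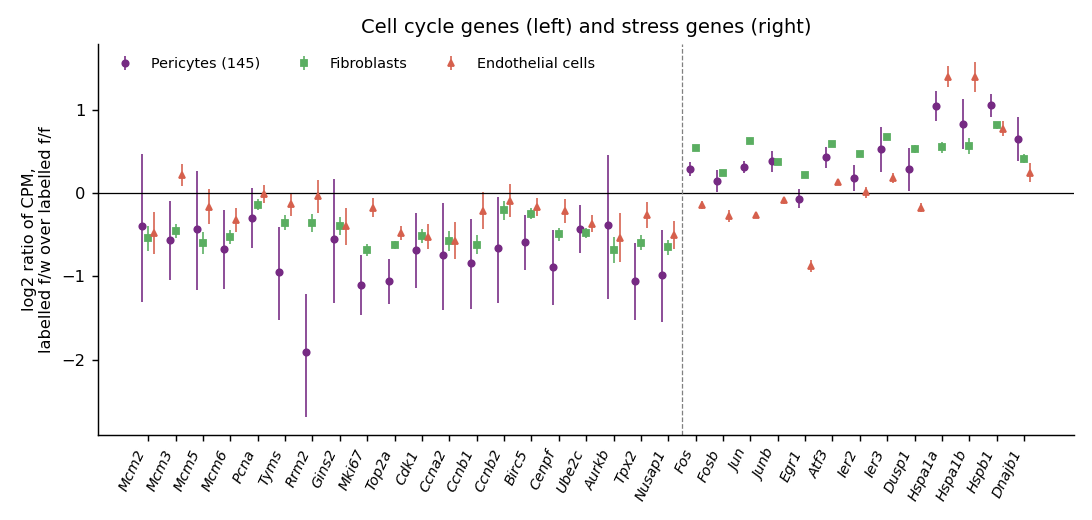
log2 ratio of CPM, labelled f/w over labelled f/f, for 20 cell cycle genes (left of the dashed line) and 13 stress genes (right) in the 145 pericytes, fibroblasts and endothelial cells, with intervals that cover counting error only. All 20 cell cycle genes lie below 0 in pericytes, with a median of -0.68, and Hspa1a and Hspb1 both lie at 1.05.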

How the data were processed

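The deposited matrix holds raw UMI counts per gene and cell barcode, which the authors made with Cell Ranger (5.0.0 in the matrix header, 3.1.0 in the submitters' processing notes, which also list STAR, Seurat 3.1.1 and mm10) and aggregated after down-sampling reads to a common depth. Down-sampling lowers the counts of the deeper library, so rare transcripts are seen in fewer of its cells. Barcode suffixes were assigned to libraries by the number of cells in each sample's metrics summary, which served for nothing else. The cell filter and the rule are given above. Counts were summed over cells and scaled to CPM (Python 3.11.15, NumPy 2.4.6, SciPy 1.17.1, pandas 2.3.3, matplotlib 3.10.9). Genes were compared between libraries from 50 UMIs in both together, with 2-fold as the mark, and with other cells from 20 UMIs in each library, with 4-fold in both as the mark and the 8 genes of the rule left out. Named genes came from fixed lists, beside the 20 highest ratios over other cells and, from 100 UMIs, the 8 highest and 8 lowest ratios between libraries. Medians per barcode were 9219 and 8105.5 UMIs, and 2110 and 1728 barcodes fell below 1000 UMIs. Of 32285 gene identifiers, 32235 were found in GENCODE M21. Some genes are not reported here. The summed-count scripts were tested on simulated data. The members and lists were chosen with earlier results of these data known. Introns were not counted.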

Additional observations from a re-analysis of the deposited data

How the results depend on the processing

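With 1 library per genotype no replicate could be left out. No paired analysis was possible because each group has a single library. The log2 ratio of the shares of all members (-0.02) stayed between -0.31 and 0.07 under 13 alternatives of the rule, the filter or the denominator, and was -1.71 per endothelial cell and -1.58 per endothelial cell without lymphatic genes once the catecholamine-gene members were left out. The number of genes past 2-fold between the libraries (403 of 6077 compared) moved with the floor, the depth and the members kept, as did the number compared. It was 1016 of 9023 from 20 UMIs, 71 of 2065 from 200 UMIs and 27 of 1028 after thinning to 2000 UMIs. In members without Pdgfra, Myod1, Myog, Sox10 and Ptprc it was 258 of 4493. Without the catecholamine-gene members it was 173 of 5265, and without these and the cartilage-transcript members 154 of 4636. The 4 other settings gave 399 to 453 of 6077. The number past 4-fold over other cells (76) was 34 from 50 UMIs and 61 to 102 in 4 other settings. The log2 ratio of cycling shares (-1.12) lay between -1.07 and -0.53 in 4 alternatives, and from 1 UMI its interval reached 0.01. Of 31 named genes past 2-fold in the 145 pericytes, 19 stayed past it without the cartilage-transcript members, 6 fell under it and 6 changed sign: Comp (-0.21), Hapln1 (-0.48), Col2a1 (-0.27), Col9a1 (-0.58), Acan (-0.081) and Crybg3 (-0.71). The intervals of these 6 all included 0, so no reversal is shown. Some rested on counts under the floor of 50 UMIs, such as Comp with 9 and 4. With the top cell of each gene left out, 27 stayed past 2-fold and Acan, Crybg3, Hba-a1 and Hba-a2 fell under it. Alternatives that leave out the catecholamine-gene or cartilage-transcript members, drop Ndufa4l2 from the rule, leave out the top cell of a gene or use endothelial cells without lymphatic genes were chosen after seeing the data. Few cells and few UMIs per gene limit what can be seen.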

Other observations

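Among all 170 members, the highest ratios for the library labelled f/w were those of the neutrophil genes S100a9, Lyz2, Stfa1, Cstdc5, S100a8 and Camp, followed by Sncg and Prph, genes of peripheral neurons. One member of the library labelled f/w held 506 of the 511 S100a9 UMIs, 342 of 342 Stfa1 UMIs and 152 of the 155 Lyz2 UMIs, and that library's 19 catecholamine-gene members supplied most of the Sncg (181 UMIs against 3) and Prph (240 against 5) UMIs.

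The catecholamine-gene members also held Rgs4, at 375 CPM (243 to 553) and 225 CPM (181 to 278), and Vgf, a granule peptide precursor, at 390 and 284 CPM. In the 453 kept cells with at least 5 UMIs of the catecholamine genes, Rgs4 was at 207 CPM and Rgs5 at 38.5 CPM.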
